A study of Mus musculus with 27 samples.

Results

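The 10 genes described here are the chemokine transcripts Ccl2, Ccl5, Ccl7, Ccl9, Cxcl1, Cxcl5, Cxcl10, Cxcl12, Cxcl14 and Cx3cl1 in cultures of C2C12 myotubes. They were picked by gene symbol from a count table of 20446 genes, with their levels in CPM (counts scaled to library size) in these libraries already known, and are 10 of the 39 chemokine genes listed for this work that the table holds. C2C12 is a mouse myoblast line that fuses into multinucleated myotubes when serum is lowered. Cells were grown in 10% FBS, seeded at 50000 per well, switched at about 90% confluence to 2% horse serum, and then exposed to 50% horse serum for 2 h, a pulse that sets the circadian clocks of the culture to a common phase. Total RNA depleted of ribosomal RNA was sequenced from cultures taken at 9 time points, every 6 h from 12 to 60 h after the pulse, with 3 libraries per time point (27 in all). Every group received the same pulse, so the comparisons are between times, and no culture without a pulse was analysed. All libraries come from 1 cell line, and the labels number the libraries 1 to 3 without saying whether the numbers are separate cultures. The p-values below thus rest on library-to-library spread alone, part of which may be technical.

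Chemokines are small secreted proteins that attract leukocytes by binding G protein-coupled receptors. CC chemokines such as Ccl2 and Ccl7 mainly draw monocytes, CXC chemokines such as Cxcl1 and Cxcl5 draw neutrophils through the receptor Cxcr2, and Cx3cl1 is made as a membrane-anchored protein that proteases can release. In injured muscle, chemokines guide the monocytes and macrophages that take part in regeneration, and Cxcl12 with its receptor Cxcr4 guides migrating muscle precursors.

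Depth was between 15.2 and 26.6 M counts per library (median 20.9 M), and all 10 genes passed the filter on low counts, as did 12687 genes in all. Of the 39 chemokine genes, 15 passed it and 9 had no read in any library. The myotube label was checked against 12 markers (among them Acta1, Ttn and Myh3), which summed to between 19345 and 22871 CPM in the 27 libraries. Markers of leukocytes and endothelium, cells that are also known to make chemokines, summed to between 2.67 and 4.28 CPM over 16 genes. The T and natural killer cell genes Cd3e and Nkg7 and the myeloid adaptor Tyrobp had 0 reads in all 27 libraries, and the pan-leukocyte gene Ptprc had 20 reads in total. Cd68, Tek, Csf1r and Itgam of the same list passed the filter, with means of 1.03, 0.74, 0.55 and 0.55 CPM. These means lie near those of Cxcl1 (0.92 CPM) and Cxcl10 (0.62 CPM). Of 10 genes listed as fibroblast markers, which myoblasts also express in part, Col3a1 was the most abundant, and the sum was between 7826 and 11484 CPM. Col1a1, Pdgfrb, Tcf4, Ly6a, Dcn and Pdgfra averaged between 25.4 and 933 CPM. The rest were rare or absent: Dpt averaged 1.10 CPM, Lum had 65 reads in total and Thy1 had 0 reads in all 27 libraries. Tcf4, at 308 CPM, is the E protein gene of that symbol and not Tcf7l2, so it is no marker of fibroblasts. It is still counted in the sums and trends of this list.

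On a scale per kilobase of exon (RPKM, that is, CPM divided by exon length in kilobases), Cx3cl1 had the highest level, 6.81 ± 1.77 (SD over all 27 libraries). Ccl7 at 5.32 ± 1.07, Ccl2 at 5.25 ± 1.75 and Cxcl12 at 4.10 ± 0.88 RPKM followed. Cxcl14 at 2.82 ± 1.42, Ccl9 at 2.23 ± 0.66, Cxcl5 at 1.80 ± 0.77 and Ccl5 at 1.23 ± 1.06 RPKM were intermediate. Cxcl1 at 0.49 ± 0.19 and Cxcl10 at 0.28 ± 0.16 RPKM were the lowest of the 10. No 2 neighbours in this order differed by more than the sum of their SDs: Cx3cl1 was above Ccl7 in 18 of 27 libraries, and Ccl7 above Ccl2 in 14. In CPM the order differed, with Cxcl12 (8176 bases of exon) highest at 33.5 and Cx3cl1 (3930 bases) next at 26.8. At every time point the 10 genes together held between 83.2% and 86.5% (means of 3 libraries) of the length-scaled reads of all 39 chemokine genes. The gene with the largest mean share differed between time points. Ccl2 led at 12 and 36 h (19.5 ± 3.3% and 18.3 ± 3.6%, SD) and Ccl7 at 24 h (17.8 ± 2.0%). Cx3cl1 led at the other 6 time points (17.7% to 25.2%). Some leads lay within the SDs: at 12 h Ccl7 and Cx3cl1 held 16.1 ± 3.1% and 16.1 ± 4.5%. At 60 h Cx3cl1 held 18.6 ± 2.4% and Ccl2 17.9 ± 1.7%. The order of shares was not tested. The largest share outside the 10 was that of the monocyte attractant Ccl8, with a mean of 6.48%.

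Within this pool, shares moved between genes. The length-scaled sum of the 39 genes was highest at 12 h with 40.5 ± 1.1 RPKM and lowest at 18 h with 31.4 ± 0.6, and the 60 h libraries gave 37.8 ± 1.8 (SD, n = 3). Cxcl14 held 1.57 ± 0.04% of it at 12 h, and by 36 and 60 h its share was 8.86 ± 1.04% and 11.9 ± 0.7%. Ccl5 held 8.13 ± 0.35%, 1.89 ± 0.51% and 0.85 ± 0.58% at these 3 times, and Cxcl5 held 5.97 ± 0.96%, 3.74 ± 0.97% and 2.35 ± 0.59%. Cxcl14 and Ccl5 thus exchanged places, with Cxcl14 the smaller share at 12 h and the larger at 60 h. Shares and CPM are relative measures of RNA in the whole culture, in which fewer cells of a type and less RNA per cell cannot be told apart.

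**Figure D1:**
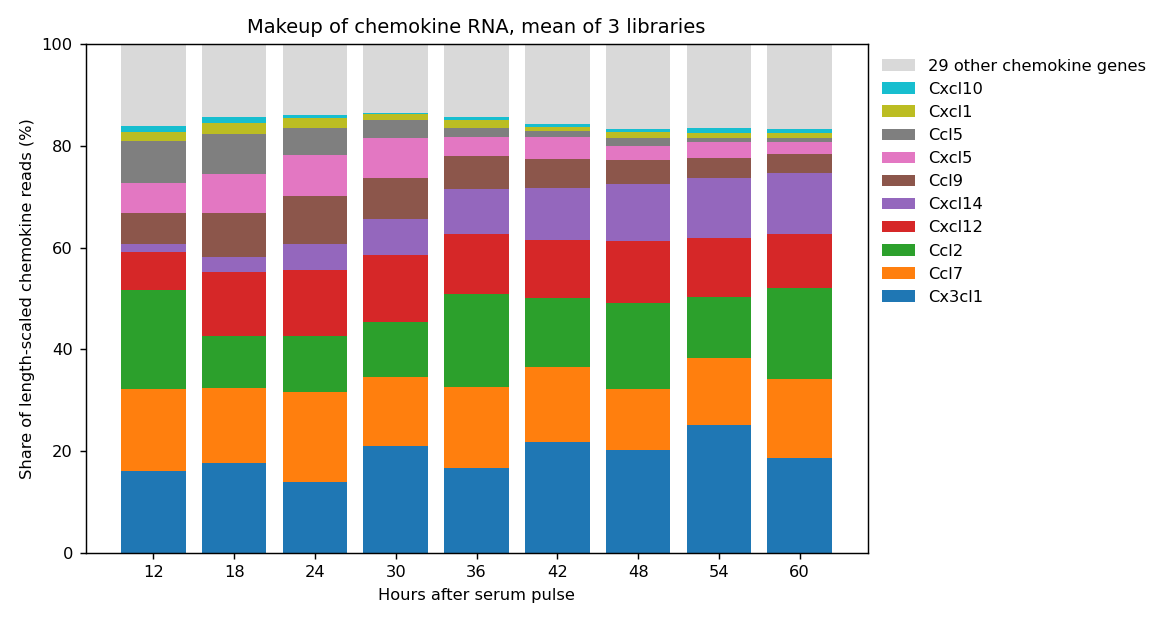
Each bar gives, for 1 time point (x axis, hours after the serum pulse), the percentage of the length-scaled reads of 39 chemokine genes that fell to each of the 10 genes (colours) and to the 29 others together (grey), as means of 3 libraries. The Cxcl14 band widens from 1.57% at 12 h to 11.9% at 60 h, and the Ccl5 band narrows from 8.13% to 0.85%.

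With the time point as a factor, edgeR's quasi-likelihood test with Benjamini-Hochberg adjustment called a change of any shape in 18.4% of all genes tested, and in 6 of the 10: Ccl2, Ccl5, Ccl9, Cxcl1, Cxcl5 and Cxcl14. A linear trend from 12 to 60 h, fitted beside a 24 h wave, was called upward in 10.7% and downward in 8.69% of all genes (19.4% in all). Among the 10 it was called upward for Cxcl14 and downward for Ccl5, Cxcl5, Cxcl1 and Ccl9. For 60 h against 12 h 16.0% of all genes were called, 9.48% up and 6.54% down, and the same 5 chemokines were called in the same directions. The median log2 trend per 48 h was -0.16 over the 10 and -0.01 over all genes. Libraries of 12 and 60 h did not overlap for those 5 of the 10, and for 32.2% of all genes. Since the genes were chosen with earlier results known, these counts describe them and are not read against the background.

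**Figure D2:**
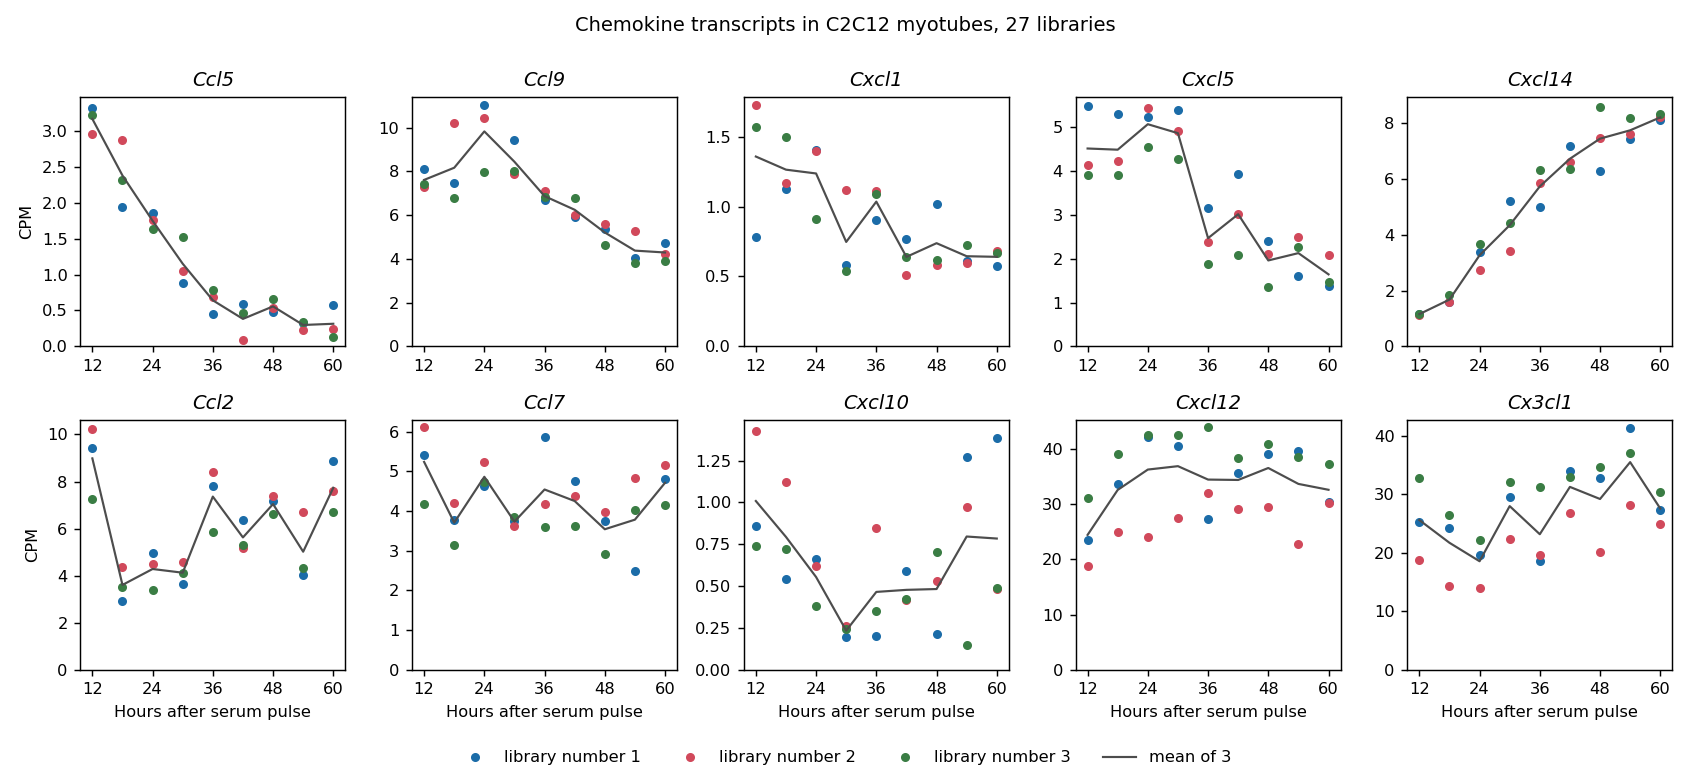
Points are CPM (y axis, from 0) of single libraries, coloured by library number, against hours after the serum pulse, and lines join the means of 3. In the upper row Ccl5, Ccl9, Cxcl1 and Cxcl5 end lower at 60 h than they began at 12 h and Cxcl14 ends higher; in the lower row the 12 and 60 h libraries of each gene overlap.

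For 6 of the 10 genes RefSeq's promoter table (GRCm38.p6, a patch release of the assembly also called mm10) held an entry: Ccl9, Cxcl1, Cxcl10, Cxcl12, Cxcl14 and Cx3cl1. Both strands of the 250 bases before each start were searched for an NF-kB motif, an interferon-stimulated response element (ISRE, written GAAA, any 2 bases, GAAA), an E-box (CACGTG) and an AP-1 motif (TGANTCA). The promoters below are all those in which a match was found. Of their genes, Cxcl1 and Ccl9 fell, Cxcl14 rose and Cxcl10 passed no test. Each runs 5′ to 3′ on the gene's strand from base -240 to base -11 before the start, with matches in capitals. Cxcl1 lies at chr5:90891005-90891234 (plus strand), Ccl9 at chr11:83578647-83578876, Cxcl10 at chr5:92348900-92349129 and Cxcl14 at chr13:56296562-56296791 (the last 3 on the minus strand).
Cxcl1: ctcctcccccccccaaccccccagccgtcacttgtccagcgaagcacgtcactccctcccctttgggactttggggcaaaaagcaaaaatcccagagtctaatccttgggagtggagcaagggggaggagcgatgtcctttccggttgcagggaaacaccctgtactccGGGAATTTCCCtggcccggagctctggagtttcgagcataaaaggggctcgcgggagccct
Ccl9: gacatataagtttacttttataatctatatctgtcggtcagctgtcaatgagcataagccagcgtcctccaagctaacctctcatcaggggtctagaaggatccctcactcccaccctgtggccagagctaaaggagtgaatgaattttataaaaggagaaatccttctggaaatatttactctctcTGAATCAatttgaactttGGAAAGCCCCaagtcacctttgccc
Cxcl10: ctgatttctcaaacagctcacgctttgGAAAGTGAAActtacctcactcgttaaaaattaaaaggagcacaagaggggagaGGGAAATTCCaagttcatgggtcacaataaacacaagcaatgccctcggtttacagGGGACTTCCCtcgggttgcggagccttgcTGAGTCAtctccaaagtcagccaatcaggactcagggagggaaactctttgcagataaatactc
Cxcl14: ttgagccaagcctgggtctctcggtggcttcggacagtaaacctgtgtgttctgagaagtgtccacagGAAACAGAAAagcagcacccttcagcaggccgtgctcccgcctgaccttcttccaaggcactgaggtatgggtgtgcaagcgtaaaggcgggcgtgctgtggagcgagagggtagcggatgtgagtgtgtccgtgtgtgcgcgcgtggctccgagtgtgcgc

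In the Cxcl1 promoter the NF-kB motif was found on both strands in overlapping positions, from base -71 to base -61. The Ccl9 promoter held an AP-1 match from base -53 to -47 and an NF-kB match from base -35 to -26. The Cxcl10 promoter matched NF-kB at 2 places, beginning at bases -159 and -103, beside an ISRE at base -213 and an AP-1 match at base -74. Cxcl14 had a single match, an ISRE from base -172 to -163. No match to these 4 motifs was found in the windows of Cxcl12 and Cx3cl1. Bases -240 to -11 of Cx3cl1, at chr8:94771940-94772169, overlap the gene position used here, which starts at 94772009. Not all of that window thus lies before the gene. Over 32851 promoter windows of 250 bases, 3.90% held the NF-kB motif, 2.98% the ISRE, 6.02% the E-box and 6.75% the AP-1 motif. A match describes the letters and does not show that a factor binds there.

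Cxcl14, a chemokine made constitutively by many epithelia and by stroma, rose in every 6 h step of the means. Its gene lies on chromosome 13 from 56288643 to 56296551 (mm10, minus strand). The libraries numbered 1, 2 and 3 gave 1.17, 1.13 and 1.18 CPM at 12 h, 5.01, 5.87 and 6.34 CPM at 36 h, and 8.11, 8.21 and 8.33 CPM at 60 h. No library of 12 h overlapped any of 36 h, and none of 36 h overlapped any of 60 h. From 12 to 60 h Cxcl14 rose by 2.82 ± 0.16 on the log2 scale (SE), or 7.05-fold (edgeR adjusted p = 5.98e-12). The linear trend was 2.59 ± 0.23 log2 per 48 h (edgeR adjusted p = 2.93e-09).

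Most of that increase came in the first day. Between 12 and 36 h, a comparison in which 16.0% of all genes were called (9.27% up and 6.72% down), Cxcl14 rose by 2.30 ± 0.16 log2 (edgeR adjusted p = 2.84e-10). Between 36 and 60 h the log2 difference was 0.52 ± 0.13 (edgeR adjusted p = 0.0698). The change in the second 24 h differed from that in the first by -1.79 ± 0.25 log2 (edgeR adjusted p = 3.93e-05), a test that called 6.75% of all genes, 4.38% in this direction and 2.37% in the other. Cxcl14 was the only one of the 10 that this test called.

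Over the 27 libraries the genes with log CPM most like that of Cxcl14 were Col8a2, a collagen chain, with a Pearson r of 0.987, Fam198b (0.974) and the matrix protein gene Ccdc80 (0.972). The ranking covered 11504 genes averaging 1 CPM or more, and all 27 points share their libraries and time points. The linear trend called 10.7% of all genes up and 8.69% down. Of the 10 genes listed as fibroblast markers 8 were tested along it, with 2 called up, none down and a median of -0.02 log2 per 48 h. Those 2, Pdgfrb and Col1a1, rose along the same trend by 0.48 ± 0.10 and 0.94 ± 0.19 log2 per 48 h (edgeR adjusted p = 0.000626 and 0.000696). The summed fibroblast markers were lowest at 12 h with 7890 ± 81 CPM and highest at 30 h with 11000 ± 422, and by 60 h the sum was 9445 ± 807 (SD, n = 3). Col3a1, with a mean of 7553 CPM, made up most of that sum, and its trend was -0.13 ± 0.10 log2. The other 5, Tcf4 among them, had trends between -0.53 (Dpt) and 0.30 (Dcn) log2 and did not pass. Whether fibroblast-like cells had a part in the rise of Cxcl14 was not tested.

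Ccl5, which attracts T cells and monocytes, had the largest decrease of the 10 genes. It lies on chromosome 11 from 83525778 to 83530518 (minus strand). The 3 libraries gave 3.31, 2.96 and 3.22 CPM at 12 h, 1.86, 1.76 and 1.63 CPM at 24 h, and 0.45, 0.69 and 0.79 CPM at 36 h. By 60 h they gave 0.57, 0.24 and 0.13 CPM, from 12, 6 and 3 reads. All libraries of 36 h and later were below all those of 12, 18, 24 and 30 h. The trend was -3.87 ± 0.29 log2 per 48 h (edgeR adjusted p = 2.47e-10), and Ccl5 was 10.1-fold lower at 60 h than at 12 h (log2 difference -3.34 ± 0.35, edgeR adjusted p = 1.99e-07). From 12 to 36 h the difference was -2.28 ± 0.31 log2 (edgeR adjusted p = 9.30e-06), and from 36 to 60 h it was -1.05 ± 0.44 (edgeR adjusted p = 0.491). Libraries of 36 h and later held between 2 and 18 reads of Ccl5. Without library number 1 of 60 h the 60 h against 12 h difference was -4.03 log2, or 16.3-fold. The genes most like Ccl5 over the 27 libraries were the hormone gene Fgf21 (r = 0.893), the fusion peptide gene Mymx (0.886) and the myogenic factor Myog (0.884).

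Ccl9, a CC chemokine of the mouse that binds Ccr1, lies 42.4 kb from Ccl5 on chromosome 11, from 83572919 to 83578636 (minus strand). Its mean was highest at 24 h, where the libraries overlapped those of 12 and 18 h, and a rise to that time was not tested. The libraries gave 8.11, 7.29 and 7.45 CPM at 12 h, 11.1, 10.4 and 7.99 CPM at 24 h, and 4.72, 4.25 and 3.92 CPM at 60 h. All 3 libraries of 60 h were below all 3 of 12 h. The decrease from 12 to 60 h was -0.83 ± 0.15 log2, or 1.77-fold (edgeR adjusted p = 0.000392), and the trend was -1.11 ± 0.15 log2 per 48 h (edgeR adjusted p = 3.05e-06). Ccl9 differed by -0.15 ± 0.15 log2 between 36 and 12 h (edgeR adjusted p = 0.593). It was the 1 gene of the 10 called between 60 and 36 h, where 0.875% of all genes were called (0.504% up and 0.370% down), with -0.68 ± 0.15 log2 (edgeR adjusted p = 0.0342). That last call was lost when any 1 of the 6 libraries of 36 and 60 h was left out, with edgeR adjusted p between 0.0755 and 0.172, and without the 9 libraries numbered 2 (edgeR adjusted p = 0.209). The growth factor gene Vegfd (r = 0.883), Scara5 (0.875) and Pdcd4 (0.867) had the patterns most like it.

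**Figure D3:**
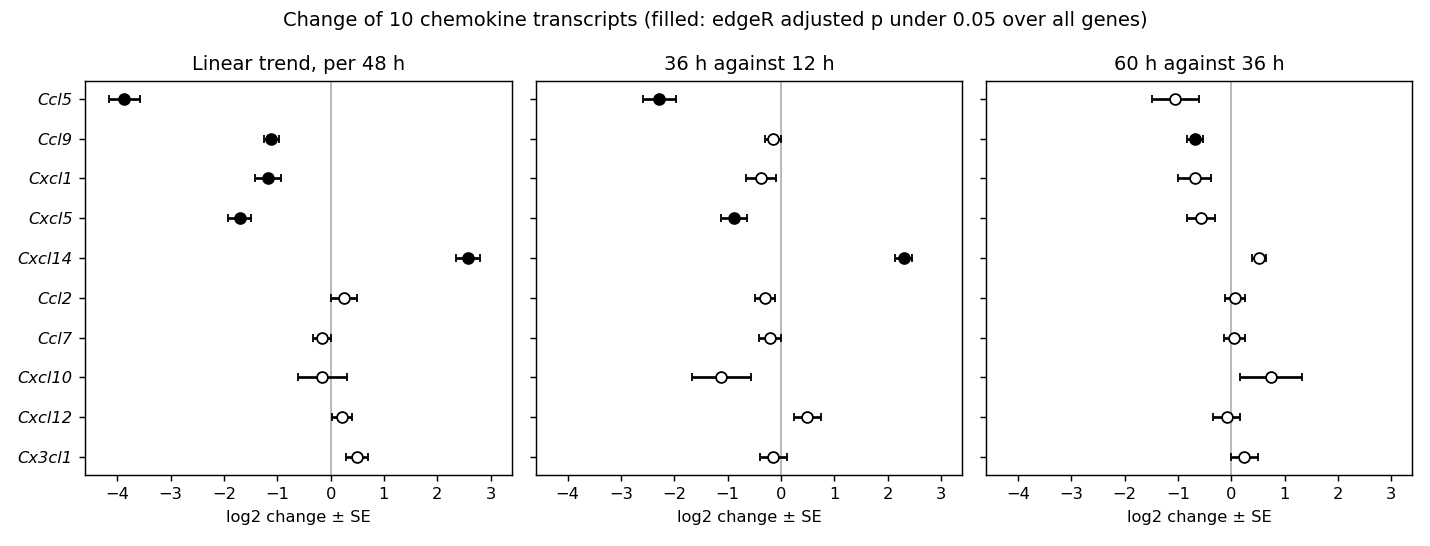
Points are log2 changes with standard errors for the 10 genes along the linear trend (per 48 h), for 36 h against 12 h and for 60 h against 36 h, and filled points passed edgeR's adjusted p of 0.05 over all genes. Cxcl14 and Ccl5 lie farthest from 0 in the first 2 panels, and only the Ccl9 point is filled in the last.

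The neutrophil attractants Cxcl5 and Cxcl1, which lie 129.616 kb apart on chromosome 5, both fell. Cxcl5, from 90759360 to 90761624 on the plus strand, had means between 4.49 and 5.07 CPM through 30 h and lower ones from 36 h. Its libraries gave 5.50, 4.14 and 3.92 CPM at 12 h, 5.40, 4.92 and 4.28 CPM at 30 h, and 3.15, 2.38 and 1.88 CPM at 36 h. At 60 h they gave 1.38, 2.08 and 1.47 CPM. No library of 36 h overlapped any of the 12 libraries taken up to 30 h. The trend was -1.71 ± 0.21 log2 per 48 h (edgeR adjusted p = 1.18e-06), and the level at 60 h was 2.73-fold below that at 12 h (log2 difference -1.45 ± 0.25, edgeR adjusted p = 0.000144). For 36 h against 12 h the difference was -0.88 ± 0.24 log2 (edgeR adjusted p = 0.0115), which rose to between 0.0770 and 0.0816 without library number 1 of 12 h, without number 3 of 36 h, or without the 9 libraries numbered 2. Mtfr1l (r = 0.879), Mmd (0.866) and the aldehyde dehydrogenase gene Aldh3a1 (0.864) were most like Cxcl5.

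Cxcl1, from 90891241 to 90893115 on the plus strand, was among the rarest of the 10, with 11 to 36 reads per library. It gave 0.78, 1.72 and 1.57 CPM at 12 h, 0.90, 1.11 and 1.09 CPM at 36 h, and 0.57, 0.68 and 0.67 CPM at 60 h. The first library of 12 h was well below the other two, and still above all 3 of 60 h. Cxcl1 fell by 1.05 ± 0.30 log2 from 12 to 60 h (edgeR adjusted p = 0.0158), with a trend of -1.17 ± 0.24 log2 per 48 h (edgeR adjusted p = 0.000788). Without the 9 libraries numbered 2 it passed none of these tests (trend -0.91 log2, edgeR adjusted p = 0.0539; 60 h against 12 h -0.89 log2, edgeR adjusted p = 0.169; any change, edgeR adjusted p = 0.214). The 60 h against 12 h call was also lost without library number 2 or 3 of 12 h or number 1 of 60 h (edgeR adjusted p between 0.0617 and 0.0953).

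Ccl2, the main monocyte attractant and ligand of Ccr2, lies on chromosome 11 from 82035571 to 82037453 (plus strand) and changed without a trend. Its libraries gave 9.43, 10.3 and 7.27 CPM at 12 h, 2.93, 4.39 and 3.51 CPM at 18 h, and 3.65, 4.60 and 4.13 CPM at 30 h. They were higher again at 36 h with 7.81, 8.41 and 5.86 CPM, and gave 8.87, 7.61 and 6.72 CPM at 60 h. The highest mean of the course, 8.98 ± 1.54 CPM at 12 h, was 2.49-fold above the lowest, 3.61 ± 0.73 CPM at 18 h. A change of any shape was called (edgeR adjusted p = 8.24e-05), while the trend was 0.26 ± 0.24 log2 per 48 h (edgeR adjusted p = 0.523). Without the 3 libraries of 12 h the trend was 1.02 log2 per 48 h (edgeR adjusted p = 0.00995).

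Alternate collections of Ccl2 also differed on average. The mean over 12, 24, 36, 48 and 60 h was 7.08 CPM and that over 18, 30, 42 and 54 h was 4.59 CPM. The alternation was not regular. The 24 h mean was 4.28 ± 0.80 CPM, with libraries overlapping those of 18 and 30 h. It lay below the means of 42 h (5.62 ± 0.66 CPM) and 54 h (5.02 ± 1.47 CPM), while that of 48 h was 7.04 ± 0.39 CPM. A term for this alternation, fitted beside the trend and the 24 h wave, gave 0.55 ± 0.13 log2 (edgeR adjusted p = 0.0288), in a test that called 0.772% of all genes, 0.229% in this direction and 0.544% in the other. None of the other 9 was called. The Ccl2 call did not stand without the 12 h libraries (0.40 log2, edgeR adjusted p = 0.0664), without the 9 libraries numbered 2 (0.61 log2, edgeR adjusted p = 0.134), or without any 1 of 9 single libraries of 18, 30, 48 and 54 h (edgeR adjusted p between 0.0535 and 0.0634). The genes most like Ccl2 over all libraries were the stress factor Ddit3 (r = 0.831), Ybx3 (0.810) and Ostf1 (0.808).

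Ccl7, another monocyte attractant, starts 8.258 kb beyond the end of Ccl2, at 82045712 to 82047525 on the same strand. It gave 5.42, 6.11 and 4.18 CPM at 12 h, 5.86, 4.18 and 3.58 CPM at 36 h, and 4.82, 5.17 and 4.14 CPM at 60 h. The 3 groups overlap, and the highest time point mean was 1.48-fold above the lowest. Neither the test of any change (edgeR adjusted p = 0.302) nor the trend (-0.17 ± 0.17 log2 per 48 h, edgeR adjusted p = 0.547) passed. Ccl2 and Ccl7 had a Pearson r of 0.493 over the 27 libraries, and of 0.622 after the mean of each time point was taken out. The like figures for the other neighbours were 0.735 and 0.141 for Ccl5 and Ccl9, and 0.496 and 0.012 for Cxcl1 and Cxcl5. Pts (r = 0.760), Rad52 (0.746) and Prorsd1 (0.740) were most like Ccl7.

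Cxcl10, an interferon-induced attractant of T cells that binds Cxcr3, was the lowest of the 10, with 3 to 29 reads per library. It gave 0.86, 1.43 and 0.74 CPM at 12 h, 0.19, 0.26 and 0.25 CPM at 30 h, and 1.38, 0.48 and 0.49 CPM at 60 h. At 30 h all 3 libraries were below all 3 of 12 h, and at 54 h the libraries spread from 0.15 to 1.27 CPM. No test of Cxcl10 passed (any change, edgeR adjusted p = 0.316; trend -0.16 ± 0.46 log2 per 48 h, edgeR adjusted p = 0.857). Its gene, on chromosome 5 from 92346638 to 92348889 on the minus strand, lies within Art3 on the other strand. Art3 had a mean of 2.05 CPM and an r of 0.468 with Cxcl10. Whether strand was used in counting is not given in the sources used here, and overlap of their exons was not checked. Whether reads of these 2 genes were kept apart is thus not known.

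Cxcl12, the homeostatic ligand of Cxcr4 and of the scavenger receptor Ackr3, lies on chromosome 6 from 117168535 to 117181367 (plus strand). Its libraries gave 23.4, 18.7 and 31.1 CPM at 12 h, 27.3, 32.1 and 43.97 CPM at 36 h, and 30.4, 30.2 and 37.2 CPM at 60 h. The 3 groups overlap, and library number 3 was the highest in each. The trend was 0.21 ± 0.19 log2 per 48 h (edgeR adjusted p = 0.493), and any change had an edgeR adjusted p of 0.844. With the library number as a block, any change passed (edgeR adjusted p = 0.0317). So did the rises of Cxcl12 from 12 to 36 h and from 12 to 60 h (edgeR adjusted p = 0.00654 and 0.0173), but not its trend.

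Cx3cl1 (fractalkine), the ligand of Cx3cr1, lies on chromosome 8 from 94772009 to 94782427 (plus strand). It gave 25.2, 18.8 and 32.8 CPM at 12 h, 18.7, 19.6 and 31.3 CPM at 36 h, and 27.3, 25.0 and 30.5 CPM at 60 h. Its mean was lowest at 24 h, with 18.6 ± 4.2 CPM, and highest at 54 h, with 35.5 ± 6.8 CPM. The trend was 0.49 ± 0.21 log2 per 48 h (edgeR adjusted p = 0.105) and any change had an edgeR adjusted p of 0.187. Any change passed without the 9 libraries numbered 2 (edgeR adjusted p = 0.0391) and in DESeq2 (adjusted p = 0.0459), and the trend passed without library number 3 of 12 h (edgeR adjusted p = 0.0428). With the library number as a block, any change and the trend both passed (edgeR adjusted p = 4.49e-05 and 0.0143).

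The spread of Cxcl12 and Cx3cl1 followed the library numbers. Both were lowest in the library numbered 2 at 8 of 9 time points, 36 h being the exception for both. Over the 9 time points Cxcl12 had a median of 35.6 CPM in the libraries numbered 1 (23.4 to 42.1), 27.4 in those numbered 2 (18.7 to 32.1) and 39.0 in those numbered 3 (31.1 to 43.97). For Cx3cl1 the medians were 27.3 (18.7 to 41.4), 20.2 (14.0 to 28.1) and 32.1 CPM (22.2 to 37.1). Against number 3, number 2 was lower by -0.57 ± 0.08 log2 for Cxcl12 and -0.58 ± 0.07 for Cx3cl1 (edgeR adjusted p = 2.15e-06 and 4.33e-07). The 2 genes had an r of 0.929 over the 27 libraries once the mean of each time point was taken out.

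Library number was not particular to these 2 genes: a test of it called 65.9% of all genes. It called 5 of the 10 (Ccl2, Ccl7, Cxcl5, Cxcl12 and Cx3cl1). Ccl2 and Ccl7 were higher in number 2 than in number 3, by 0.32 ± 0.09 and 0.29 ± 0.10 log2 (edgeR adjusted p = 0.00265 and 0.0127). Cxcl5 was lower in number 3 than in number 1, by -0.41 ± 0.11 log2 (edgeR adjusted p = 0.00862). With time point means taken out, Cxcl12 had an r of -0.697 with Ccl2 and of -0.699 with Ccl7. The Ccl7 call for library number had an edgeR adjusted p of 0.0331 and was lost without any 1 of 11 libraries. Beside these differences the myotube sum was 20305 ± 707, 20407 ± 520 and 21002 ± 1009 CPM in numbers 1, 2 and 3, and the fibroblast sum 9673 ± 1072, 9452 ± 914 and 9646 ± 901 CPM (SD, n = 9), and the part of either cell type was not tested. The genes most like Cxcl12 were Sh3pxd2b (r = 0.941), Synpo (0.933) and Pcdhgc3 (0.929), and those most like Cx3cl1 were Cspg4 (0.931), Tagln2 (0.915) and Lbh (0.907).

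**Figure D4:**
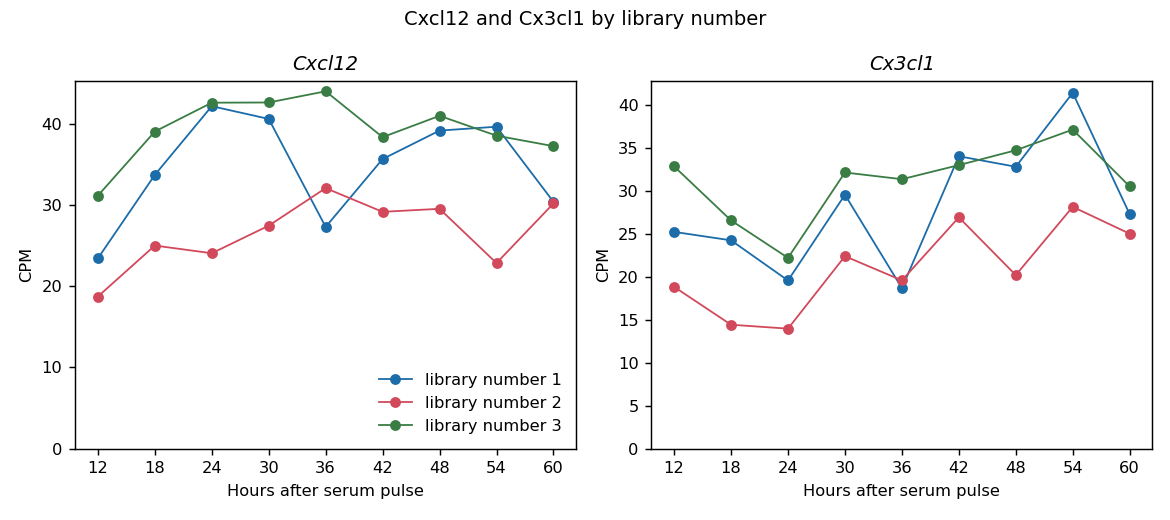
CPM (y axis, from 0) of Cxcl12 and Cx3cl1 in each library against hours after the serum pulse, with 1 coloured line for each library number. The line of number 2 lies lowest at 8 of 9 time points in both panels, with the exception at 36 h.

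A 24 h rhythm, the question for which the cultures were pulsed, was called in 0.0552% of all genes tested (7 genes, and 570 at an unadjusted p under 0.05) and in none of the 10 by edgeR. The largest swing was that of Ccl2, 0.64 ± 0.21 log2 from trough to peak, with the peak at 12.4 h counted from the pulse modulo 24 h (edgeR adjusted p = 0.896). The other 9 had swings between 0.11 log2 (Cxcl1) and 0.57 log2 (Cxcl10). None of the 10 was called with DESeq2, limma-voom, or periods of 22 or 26 h.

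Of the other chemokine genes, 5 passed the filter on low counts: Ccl8, Ccl17, Ccl25, Cxcl13 and Cxcl16. The B cell attractant Cxcl13 rose by 1.08 ± 0.27 log2 per 48 h, from 0.64 ± 0.22 CPM at 12 h to 1.25 ± 0.22 at 60 h (edgeR adjusted p = 0.00412). Ccl17, a ligand of Ccr4, had a trend of 1.24 ± 0.39 log2 per 48 h (edgeR adjusted p = 0.0247), from 0.62 ± 0.08 CPM at 12 h through 0.17 ± 0.11 at 18 h to 0.77 ± 0.28 in the last libraries. Like Ccl2, it was higher at 12 h than at 18 h. Ccl8, Ccl25 and Cxcl16 had trends of 0.02 ± 0.23, -0.20 ± 0.11 and 0.01 ± 0.23 log2, which did not pass.

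Among 23 chemokine receptors and scavengers, 7 passed the filter, and the trend called 3 up and none down. Over all genes tested it called 10.7% up and 8.69% down. Receptors of the 10 ligands were found at differing levels. Cxcr4 and Ackr3, both of which bind Cxcl12, had means of 12.2 and 9.85 RPKM, against 4.10 RPKM for Cxcl12 itself. Cx3cr1, the receptor of Cx3cl1, had 0.07 RPKM, and Ccr2, the receptor of Ccl2, had 47 reads in all. The receptor of Cxcl1 and Cxcl5, Cxcr2, had 1 read and that of Cxcl10, Cxcr3, none in the 27 libraries. Cxcr4 rose from 16.2 ± 2.1 CPM at 12 h to 24.7 ± 1.1 at 60 h (trend 0.38 ± 0.10 log2, edgeR adjusted p = 0.00757), and Ackr3 had a trend of 0.21 ± 0.11 (edgeR adjusted p = 0.205). Cxcr6, the receptor of Cxcl16, rose from 10.7 ± 1.6 to 26.4 ± 0.9 CPM (trend 1.54 ± 0.12, edgeR adjusted p = 5.45e-10), while Cxcl16 stayed at 0.76 CPM at both ends. Ackr4, a scavenger of CC chemokines, rose from 1.97 ± 0.67 to 9.10 ± 1.27 CPM (trend 1.18 ± 0.35, edgeR adjusted p = 0.0168).

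**Figure D5:**
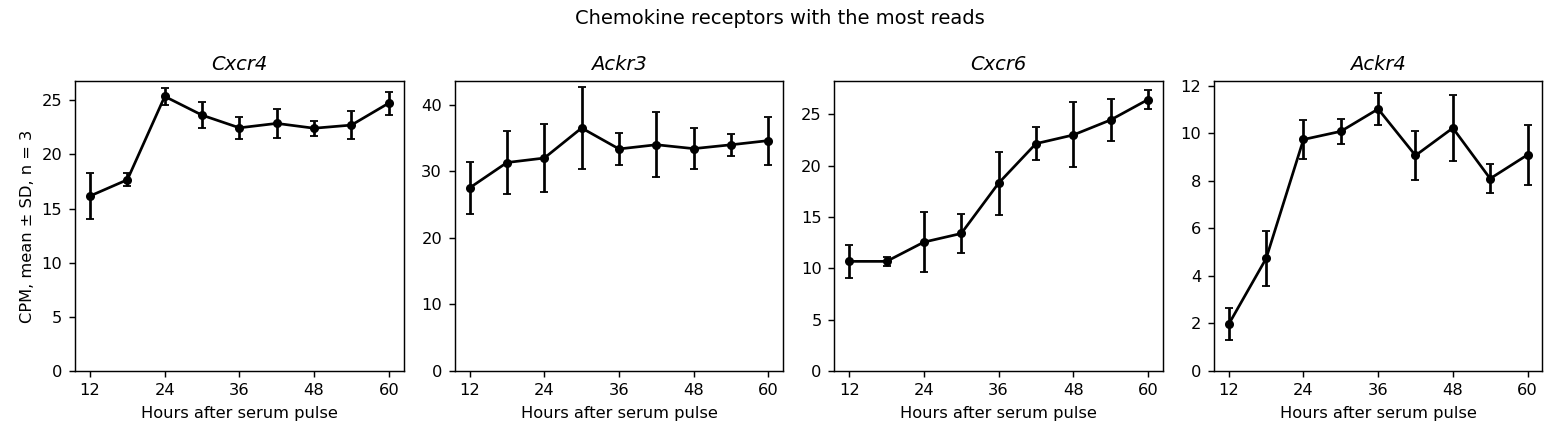
Mean CPM of Cxcr4, Ackr3, Cxcr6 and Ackr4 (y axes, from 0) against hours after the serum pulse, with SD over 3 libraries as bars. Cxcr4 has its highest mean at 24 h, Ackr4 at 36 h and Cxcr6 at 60 h, and Ackr3 means lie between 27.5 and 36.5 CPM.

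Genes for proteins that release, cut or hold chemokines were abundant. Of 12 listed, 11 passed the filter, and the trend called 2 up and none down, beside 10.7% up and 8.69% down over all genes. Adam10 and Adam17, the proteases known to shed Cx3cl1, had 127 and 123 CPM on average and trends of -0.09 ± 0.06 and -0.03 ± 0.05 log2. The heparan sulfate carrier Sdc1 and the heparan sulfate polymerase gene Ext1 rose by 0.31 ± 0.05 and 0.24 ± 0.04 log2 per 48 h (edgeR adjusted p = 3.09e-05 and 8.82e-05). Dpp4, which trims the end of several chemokines, had 3 reads in all.

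The shares that the trend called over all genes, for comparison with the next 3 lists, were 10.7% up and 8.69% down. Of 16 tested genes of the NF-kB pathway, which drives many inflammatory chemokine genes, the trend called 3 down and none up. These were Ikbkg at -0.43 ± 0.08, the feedback inhibitor Tnfaip3 at -0.42 ± 0.13 and the target Vcam1 at -0.26 ± 0.07 log2 per 48 h (edgeR adjusted p = 0.000220, 0.0201 and 0.00591). The list's median was 0.03 log2. Among 20 tested genes of inflammatory cytokines, receptors and related proteins 5 were called up and 2 down, with a median of 0.09 log2. The related proteins include the enzyme encoded by Ptgs2. Ptgs2 and Lif rose by 0.95 ± 0.14 and 0.99 ± 0.22 log2 (edgeR adjusted p = 1.91e-05 and 0.00166), Il6 rose by 0.55 ± 0.16 (edgeR adjusted p = 0.0134) and Il6ra fell by 0.50 ± 0.13 (edgeR adjusted p = 0.00874). The interferon response list, known to include inducers of Ccl5 and Cxcl10, had 16 of 27 tested genes called down and 1 up, with a median of -1.33 log2. Irf7, for example, had 13.5 ± 2.9 CPM at 12 h, while the libraries of 36 h gave 1.65 ± 0.30 and those of 60 h gave 1.54 ± 0.12 (trend -3.07 ± 0.34 log2, edgeR adjusted p = 2.30e-07). At 12, 36 and 60 h Ccl5 had 3.16 ± 0.18, 0.64 ± 0.17 and 0.32 ± 0.23 CPM, and Cxcl10 had 1.01 ± 0.37, 0.47 ± 0.34 and 0.78 ± 0.52 CPM (SD, n = 3). Whether these lists bear on the chemokine changes was not tested.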

How the data were processed

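The file holds raw counts, that is, unscaled whole-number reads of 20446 Ensembl IDs for each of the 27 libraries, as deposited by the authors. The labels' protocols name a stranded kit and removal of ribosomal RNA. The submitters' processing notes list Trim Galore 0.4.0, cutadapt 1.9.1, featureCounts and mm10. For the aligner, the annotation release and whether strand was used in counting, the answer is "not given in the sources used here". GENCODE M21 matched 20318 IDs and gave symbols, positions and exon lengths.

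Titles gave each library its time point and number. Tests were edgeR 4.0.16 quasi-likelihood F tests (robust, TMM scaling, filterByExpr with a minimum count of 10, 12687 genes), with p adjusted over all genes tested (threshold 0.05), in R 4.3.3. Time point was a factor with 8 contrasts; trend (per 48 h) and 24 h rhythm shared 1 model, to which the alternation term was added. CPM used TMM-scaled library sizes, log CPM a prior count of 2, and RPKM the union of exons. Scripts were tested on simulated counts.

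The genes and lists were chosen with earlier results of these data known. All 10 genes are named; lists give counts and up to 4 genes with the smallest trend p, other tested chemokines are all named, and the 3 most alike genes have a mean of at least 1 CPM (Cxcl1 and Cxcl10 fall below it). Other genes are named as receptors or processors of these ligands, chosen after their values were seen. Alternatives were DESeq2 1.42.0, limma-voom 3.58.1, other scaling and filters, the library number as a block, libraries, numbers or time points left out, other periods and no 24 h terms.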

Additional observations from a re-analysis of the deposited data

Results flagged for a closer look

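The change of Cxcl14 differed between the 2 days: its rise from 36 to 60 h was smaller than its rise from 12 to 36 h by a log2 difference of -1.79 ± 0.25 (edgeR adjusted p = 3.93e-05). All 3 libraries at 60 h were above all 3 at 36 h, which were above all 3 at 12 h, and the call stood with each of the 27 libraries left out in turn.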

How the results depend on the processing

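The count of the 10 genes called for 60 h against 36 h was 1, and 2 with DESeq2, limma-voom or the replicate block (Cxcl14 being added each time), 0 without the 9 libraries numbered 2, and 0 to 2 with single libraries left out. For the alternation between collections it was 1, and 0 without the libraries numbered 2 or without the 12 h libraries, and 0 to 1 with single libraries left out. With single libraries left out, the other counts were 6 for any change, 4 to 5 for 60 h against 12 h, 2 to 3 for 36 h against 12 h, 5 to 6 for the trend and 4 to 5 for the library number. No value of a called gene changed sign in any of these alternatives. A filter on a mean of 1 CPM leaves out Cxcl1 and Cxcl10. Among all genes, any change over the 9 time points called 2338, against 1189 without the 12 h libraries and 1500 without the libraries numbered 2. The linear trend called 2458, against 1181 without the 12 h libraries. For 60 h against 36 h the number was 111, with 184 in DESeq2, 33 without the libraries numbered 2, and 47 to 125 with single libraries left out. The alternation between collections called 98, with 166 in DESeq2, 27 without the libraries numbered 2, 174 without 12 h, 39 without 60 h, and 60 to 120 with single libraries left out. The first against second 24 h called 857, and 540 to 890 with single libraries left out. The 24 h rhythm called 7, and 11 in DESeq2. The cause of these shifts was not tested. Ccl5 from 36 h on, Cxcl1 and Cxcl10 rest on few reads per library.

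Deviations from the time point means were correlated between same-numbered libraries. The correlations went from -0.06 to 0.31 for number 1, 0.31 to 0.69 for number 2 and 0.05 to 0.57 for number 3. By this measure 26 of 27 libraries correlated best with their own number. Since not every same-numbered pair deviated together, the main tests of time left the number out. Differences between numbers thus count there as library-to-library spread, although the test of library number called 65.9% of all genes. With the replicate block, any change over the 9 time points also called Cxcl12 (edgeR adjusted p = 0.0317) and Cx3cl1 (4.49e-05), 36 h against 12 h and 60 h against 12 h called Cxcl12 (0.00654 and 0.0173), and the linear trend called Cx3cl1 (0.0143). Over all genes the block called 5166 for any change over the 9 time points, 3748 for 60 h against 12 h, 3802 for 36 h against 12 h, 414 for 60 h against 36 h, 1988 for first against second 24 h, 3844 for the linear trend and 382 for alternation between collections.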
